A study of Homo sapiens with 4 samples.

Results

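The genes described here encode the forkhead (FOX) and SOX transcription factors. Members were the protein-coding genes of the GENCODE annotation on GRCh37 (the assembly also called hg19) whose symbol is FOX followed by a letter and a number, or SOX followed by a number. This rule, which used no measured value, gave 71 of 20162 protein-coding genes, namely 52 FOX and 19 SOX genes. Accessible chromatin around them was mapped by FAIRE-seq, which recovers DNA that is not held by nucleosomes after formaldehyde fixation. H295R/TR SF-1 cells were used, which derive from the human adrenocortical tumour line H295R and in which doxycycline switches on an added copy of the nuclear receptor SF-1 (NR5A1). Both conditions used this same subclone and differed in SF-1 dosage, basal in untreated cells and raised (overexpression) by 3 days of doxycycline. Each condition gave 1 FAIRE library and 1 list of FAIRE sites, and the input DNA library of each condition was not analysed here. The lists held 34422 nuclear sites at basal expression and 31218 on overexpression, a ratio of 0.907.

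Forkhead proteins bind DNA through a winged-helix domain, and some of them, such as the FOXA proteins, can bind target sites within compacted chromatin. SOX proteins bind the minor groove through an HMG box and bend the DNA. Both families are known as lineage factors that mark particular cell types, for example SOX9 in Sertoli cells, FOXL2 in granulosa cells, SOX10 in neural crest derivatives and FOXP3 in regulatory T cells, whereas the FOXO proteins act in most cells as effectors of insulin and PI3K signalling.

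Since each condition had 1 library, no test between conditions was possible, no difference between the lists has a replicate check, and no p-value is given. Every site carried the same score. The measures of a site are thus its position, its width, its presence in a list and its number in the list order. What sets that order is not given, and the sequencing depth is unknown. The absence of a site means that no call was made in that library and does not show closed chromatin. Intervals in parentheses are exact (Clopper-Pearson) 95% intervals of shares, or intervals of ratios built from them, and cover counting error only. Among marker genes of the labelled cell type, 4 of 10 adrenocortical genes (40%) had a promoter site, within 1 kb of a transcript start, in the basal list and 5 of 10 (50%) in the overexpression list, against 44.4% and 46.5% of all protein-coding genes. All 10 had a promoter site or a distal site within 50 kb in at least 1 list, as did 15 of the 23 genes below, and 12.5% of all protein-coding genes had neither. None of these 23 marker genes of adrenal medulla, endothelium, blood, liver or gonadal support cells had a promoter site in either list.

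To ask which of the genes had an open promoter, sites whose centre lay within 1 kb of the start of a protein-coding transcript were counted. A promoter site was present for 21 of the 71 genes (29.6%) in the basal list, against 44.4% of all protein-coding genes. In the overexpression list it was present for 16 (22.5%), against 46.5%. The site was found in both lists for 15 genes (21.1%, all protein-coding genes 39.7%), in the basal list only for 6 (8.45%, all genes 4.77%) and in the overexpression list only for 1 (1.41%, all genes 6.81%). The remaining 49 genes (69.0%) had none, against 48.8% of all protein-coding genes. Among the 22 genes with a promoter site in either list, 6 had it in the basal list only and 1 in the overexpression list only. The background for these is 9.31% and 13.3% of the protein-coding genes with a promoter site in either list. No FOX or SOX gene had more than 1 promoter site in a list. A gene with several transcript starts has more chances of a promoter site, and the groups were not matched for the number of starts. With the 5′ end of each gene alone, 19 FOX and SOX genes had a site at basal expression and 15 on overexpression. The share of all protein-coding genes under that setting was not computed.

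The order of the lists at these promoters rested on narrow sites. With the narrower sites left out, below the median width of both lists together, 11 genes had a promoter site at basal expression and 12 on overexpression, and the number in the basal list only fell from 6 to 1. The share of the FOX and SOX genes stayed below that of all protein-coding genes in both lists, at 15.5% against 34.2% at basal expression and 16.9% against 37.1% on overexpression.

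The families differed in the share of genes with a promoter site. Among FOX genes it was 17 of 52 (32.7%) at basal expression and 13 of 52 (25%) on overexpression. Among SOX genes it was 4 of 19 (21.1%) and 3 of 19 (15.8%). The 39 genes of the HOX clusters, another family of developmental regulators, had 12 (30.8%) and 11 (28.2%), which is close to the FOX genes. By contrast, 14 (60.9%) and 15 (65.2%) of 23 nuclear receptor genes other than NR5A1 had one.

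**Figure D1:**
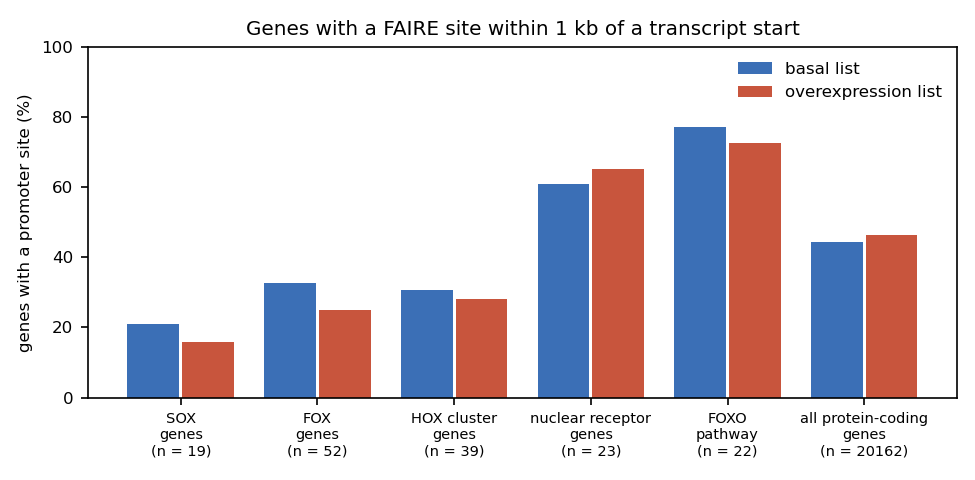
The bars give the percentage of genes with a FAIRE site within 1 kb of a transcript start (y axis, from 0 to 100%) in the basal list (blue) and the overexpression list (red) for 6 groups of genes, each list being 1 library. SOX genes (21.1% and 15.8%) and FOX genes (32.7% and 25%) lie below all protein-coding genes (44.4% and 46.5%), and the nuclear receptor and FOXO pathway genes lie above them.

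Within the forkhead family the FOXO class stood apart in the basal count. All 5 FOXO genes had a promoter site in the basal list, and 3 of the 5 in the overexpression list. The basal sites of FOXO1 (149 bp) and FOXO4 (199 bp) were among the narrow ones called in that list only. Of the 10 FOXD genes only FOXD1 and FOXD2 had one, and the classes without one included FOXB, FOXF, FOXH, FOXI, FOXM, FOXQ, FOXR and FOXS. Among SOX genes the sites were at SOX2 of group B1, SOX4 and SOX12 of group C and SOX9 of group E, whereas groups B2, D, F, G and H had none. The 7 near-identical genes FOXD4 and FOXD4L1 to FOXD4L6, of which 6 had neither a promoter nor a distal site, and FOXO3B, a near copy of FOXO3, are uncertain, because the handling of reads that match several places is not given in the sources used here.

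The 15 promoters open in both lists included factors with general and with tissue-specific roles. The widest was that of FOXN2, 449 bp at basal expression and 599 bp on overexpression. At FOXO6 the site measured 299 and 549 bp, and at FOXO3, which drives stress-response and cell-death genes, 349 and 399 bp. These 3 sites were wider on overexpression and had their centre upstream of the start, as did most. The centre lay upstream of the gene for 16 of 21 basal and 13 of 16 overexpression promoter sites. The site of FOXA3, a hepatic forkhead factor, measured 399 and 449 bp and was centred 747 bp upstream of FOXA3 in the basal list, where it also lay within 1 kb of a start of the neighbouring gene SYMPK. Its assignment to FOXA3 is therefore not unique.

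Apart from FOXO3B, the other forkhead promoters open in both lists had sites of 149 to 349 bp. At FOXC1, which acts in the anterior eye and in mesoderm, the site measured 199 bp at basal expression and 249 bp on overexpression. At FOXD1, a factor of the renal stroma, it measured 149 and 249 bp. Both were wider on overexpression, as were the sites of FOXE1 (249 and 299 bp), FOXK2 (299 and 349 bp) and FOXP4 (149 and 199 bp). The FOXE1 site, at the gene of a thyroid developmental factor, lay 917 bp downstream of the start within the coding exon. Of the 15 genes, 10 had the wider site on overexpression, 4 at basal expression and 1 had equal widths. Among the 7996 protein-coding genes with a promoter site in both lists, the site was wider on overexpression for 43.8%, wider at basal expression for 27.0% and equal for 29.2%.

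The SOX promoters present in both lists went the other way or did not move. SOX4, a group C factor of progenitor cells, had a site of 399 bp at basal expression and 199 bp on overexpression, at chr6:21593601-21593999 and chr6:21593801-21593999. SOX2, a factor of pluripotent and neural progenitor cells, had 199 and 149 bp. SOX12, also of group C, had 349 bp in both lists. The other genes with a wider basal site were FOXD2 (299 and 249 bp) and FOXO3B (399 and 249 bp). At FOXP1 the site (249 and 299 bp) did not lie at the 5′ end of the gene but at an internal start within it, and its GC content of 37.3% in the basal list was the lowest of the promoter sites.

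Promoter sites called in 1 list only were narrow. Those of the basal list measured 99 to 199 bp, with a median of 174 bp against 299 bp for the basal sites of the 15 genes open in both lists. SOX9, which directs Sertoli cell and cartilage differentiation, had a basal site of 199 bp centred 61 bp upstream of its start, and none was called there on overexpression. FOXO1, the FOXO protein best known as the target of insulin signalling, had a basal site of 149 bp centred 97 bp upstream. FOXO4, of the same class, had one of 199 bp centred 51 bp upstream. All 3 thus had their centre immediately upstream of a start in the basal list, and the SOX9 and FOXO4 sites reached across it. FOXJ3 (199 bp) and FOXL1, a factor of gut mesenchyme (149 bp), were likewise called at basal expression only. FOXA1, a pioneer factor of liver and hormone-dependent epithelia, had a site of 99 bp within the gene, 954 bp from the nearest start and therefore just inside the limit. The only gene with a promoter site on overexpression alone was FOXJ1, the master regulator of motile cilia, whose site measured 199 bp and was centred 124 bp upstream.

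The sequence of the FOXO1 site, from the GRCh37 reference and in the direction of transcription, is shown because it carries a condition-only call at a signalling gene. It covers the whole site at chr13:41240801-41240949 on the minus strand. Capitals mark CG dinucleotides, of which it holds 21.
FOXO1 basal-only: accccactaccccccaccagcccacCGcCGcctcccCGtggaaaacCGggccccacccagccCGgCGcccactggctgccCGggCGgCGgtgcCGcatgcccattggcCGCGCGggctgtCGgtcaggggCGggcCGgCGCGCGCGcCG

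**Figure D2:**
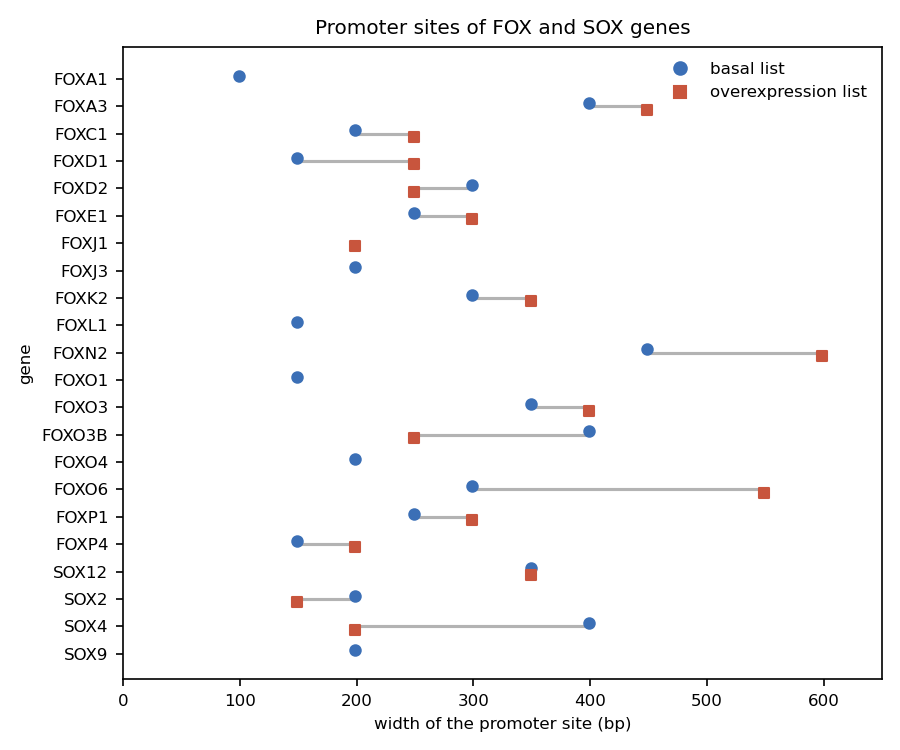
Width in bp (x axis) of the promoter site of each FOX or SOX gene that had one (y axis), in the basal list (blue circles) and the overexpression list (red squares), with a grey line joining the sites of 1 gene. The 15 genes with both symbols span 149 to 599 bp, and the 7 with 1 symbol lie at 199 bp or below.

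Near the 1 kb limit, the sites of FOXA1 (954 bp) and FOXE1 (917 bp) fell just inside. Just outside were an overexpression-only site of FOXN3 at 1027 bp, a site of both lists upstream of SOX12 at 1046 bp in the basal list, and an overexpression-only site in the coding exon of FOXC1 at 1125 bp. With a limit of 2 kb, 22 basal and 20 overexpression genes had a promoter site.

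Promoters without a site were not poor in GC. GC content was taken over 1000 bp around the 5′ end of each gene. Its median was 71.4% for the 15 genes with a site in both lists and 65.45% for the 22 with a site in either list. It was 64.0% for the 49 without a site, whereas all protein-coding genes without a site had a median of 56.4%. The families went opposite ways. FOX genes had a median of 68.1% with a site in either list and 62.6% without, and SOX genes 61.3% and 65.5%. Of the 48 FOX and SOX genes with at least 60% GC, 15 (31.25%) had a promoter site in either list, against 59.3% of the 9438 protein-coding genes with such a 5′ end. By family these were 13 of 34 FOX genes and 2 of 14 SOX genes. This is a subset of the same genes and calls, so it gives no separate support for a difference between the families. A GC-rich 5′ end without a promoter site was thus found for 33 of the 71 genes.

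**Figure D3:**
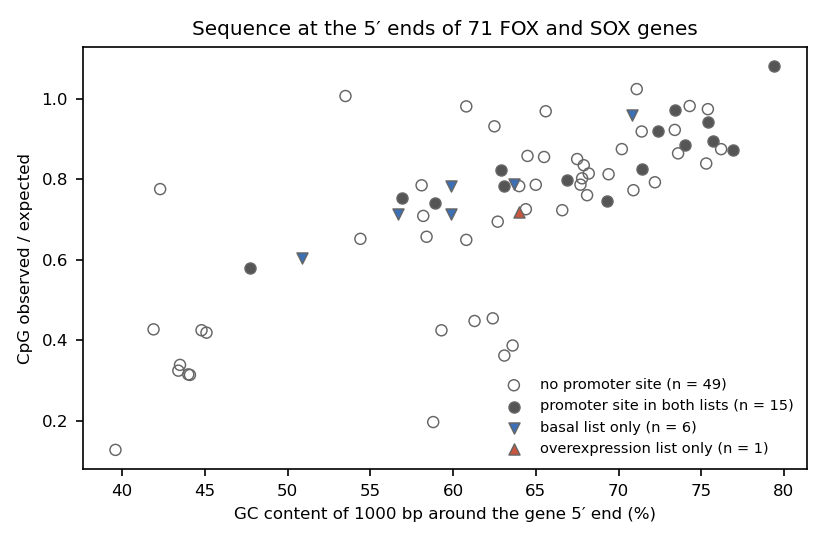
Each point is 1 of the 71 genes, placed by the GC content of 1000 bp around its 5′ end (x axis, %) and by the ratio of observed to expected CG dinucleotides there (y axis). Filled circles are genes with a promoter site in both lists, triangles those with a site in 1 list and open circles those without. The 49 genes without a site have a median GC content of 64.0% and overlap the range of those with one.

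Distal sites were those within 50 kb of a gene body whose centre lay over 1 kb from every start of any protein-coding gene. A site was counted for each gene within reach, and neighbouring members such as FOXD2 and FOXE3 or FOXC2, FOXF1 and FOXL1 share sites, so totals refer to unique sites. There were 100 distal sites at basal expression and 87 on overexpression, a ratio of 0.870 (0.645 to 1.17), against 0.860 near all protein-coding genes. At least 1 distal site was present for 43 of the 71 genes (60.6%) in each list, against 71.6% of all protein-coding genes at basal expression and 70.4% on overexpression. The genes are short, with a median length of 4.91 kb against 27.2 kb, so their windows are smaller. Per 100 kb of window there were 0.859 and 0.747 distal sites, against 1.05 and 0.902 near all protein-coding genes.

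The SOX genes had 0.541 distal sites per 100 kb at basal expression and 0.515 on overexpression, whereas FOX genes had 1.02 and 0.863. Without the long genes SOX5 and SOX6 (left out once the data had been seen) the remaining 17 SOX genes had 0.747 and 0.800. These values stayed below those of the FOX genes, from which no long gene was left out. A distal site was present for 10 and 7 of the 19 SOX genes and for 33 and 36 of the 52 FOX genes. With neither a promoter nor a distal site in either list there were 17 genes (23.9%), against 12.5% of all protein-coding genes. Of these 17, 6 are the near-identical FOXD4 genes, whose calls are uncertain, so part of the excess rests on them.

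By gene, 20 had more distal sites at basal expression, 16 had more on overexpression, 14 had the same number above 0 and 21 had none. An excess of at least 3 at basal expression was found for FOXP1, FOXK1 and SOX5 among the 71 genes, and 5.57% of all protein-coding genes had such an excess. An excess of at least 2 on overexpression was found for FOXN1, FOXR1, SOX12 and SOX13, and 9.52% of all protein-coding genes had one. These limits were set with the counts in view.

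**Figure D4:**
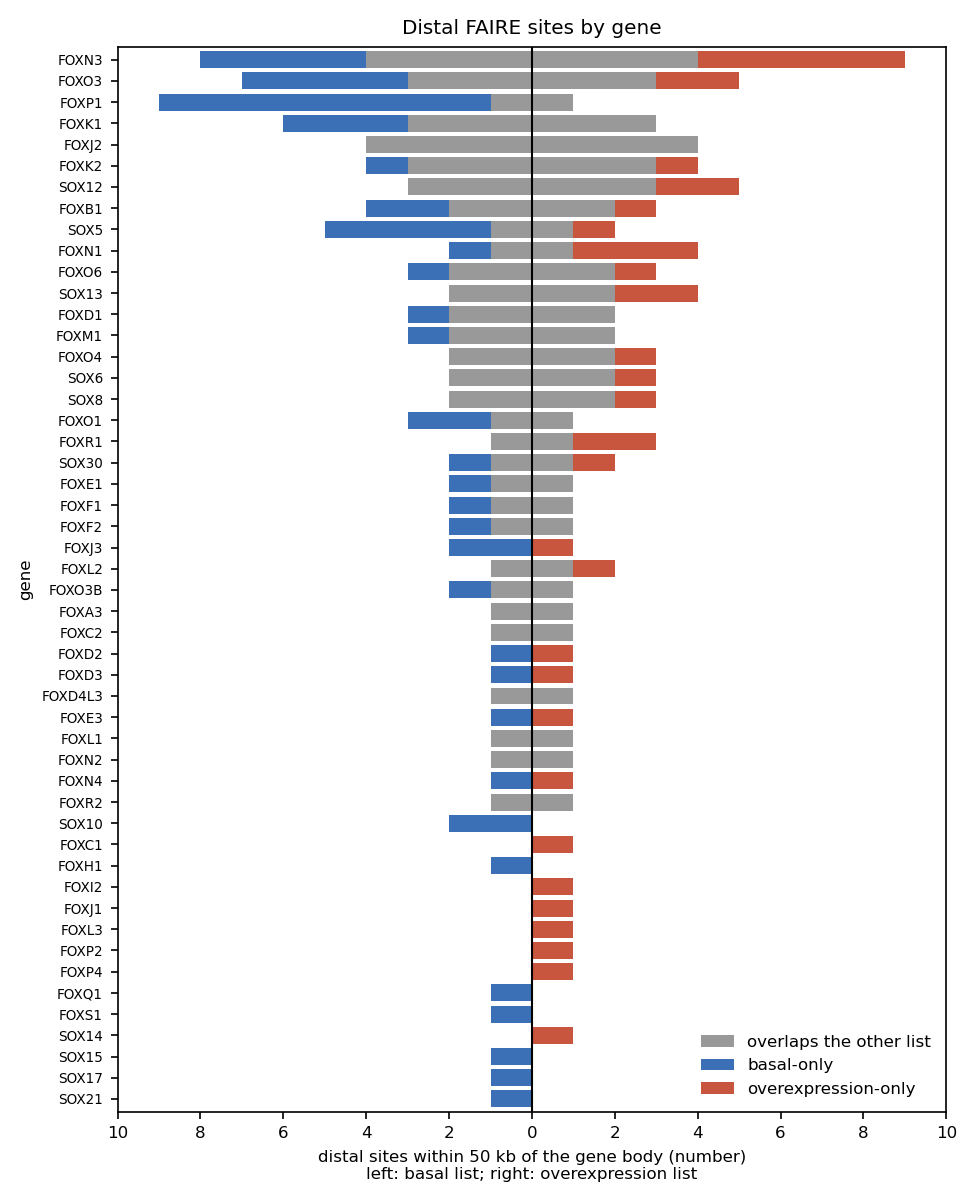
Number of distal FAIRE sites within 50 kb of each gene body (x axis) for the genes with at least 1 (y axis), to the left in the basal list and to the right in the overexpression list. Grey parts overlap a site of the other list and coloured parts do not. FOXN3 has the most (8 and 9), FOXP1 the most uneven pair (9 and 1).

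FOXP1, a factor of lymphocyte, heart and neural development, had the largest difference of the 71 genes, with 9 distal sites at basal expression and 1 on overexpression. All 9 lay in its introns, which are also covered by an overlapping protein-coding gene model, ENSG00000285708. The 8 sites called only at basal expression were spread from 42.5 to 601 kb from the 5′ end, measured 199 to 599 bp and had a GC content of 30.7 to 43.4%. The widest lay at chr3:71101501-71102099. The 1 site of both lists measured 199 bp and had 54.8% GC. None of the 8 held the SF-1, forkhead or SOX letters described with the motifs. The SF-1 letters were present in 16.1% of all basal-only distal sites of the list, and 8 sites are too few to show a lack of them. A basal excess of at least 8, the value of FOXP1, was found for 39 protein-coding genes (0.193%), and for 37 of the 1367 genes with at least 10 distal sites in both lists together (2.71%). When only the wider sites of both lists were kept, 3 basal-only sites and none on overexpression remained. Basal-only distal sites near the 71 genes had a median GC content of 39.4%, against 53.5% for overexpression-only ones. Among all such distal sites of the 2 lists the medians were 39.7% and 44.3%. GC content thus moved with the list, and its part in the FOXP1 difference was not tested.

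FOXN3, which acts as a transcriptional repressor in checkpoint control, had the most distal sites, 8 at basal expression and 9 on overexpression. All were intronic, and 4 of the 8 and 4 of the 9 overlapped between the lists. The sites present in both lists included 3 that lay 420 to 434 kb from the 5′ end. FOXN3 thus had nearly the same number in each list, although 4 basal and 5 overexpression sites were called in 1 list only. FOXO3 had 7 and 5, of which 3 were common, among them an intronic site of 499 bp at basal expression and 399 bp on overexpression, 117 kb from the 5′ end. FOXK1, a forkhead repressor linked to autophagy genes, had 6 and 3, and its 3 basal-only sites lay together in an intron, 8.17 to 16.8 kb from the 5′ end. Its relative FOXK2 had 4 in each list, 3 of them common.

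**Figure D5:**
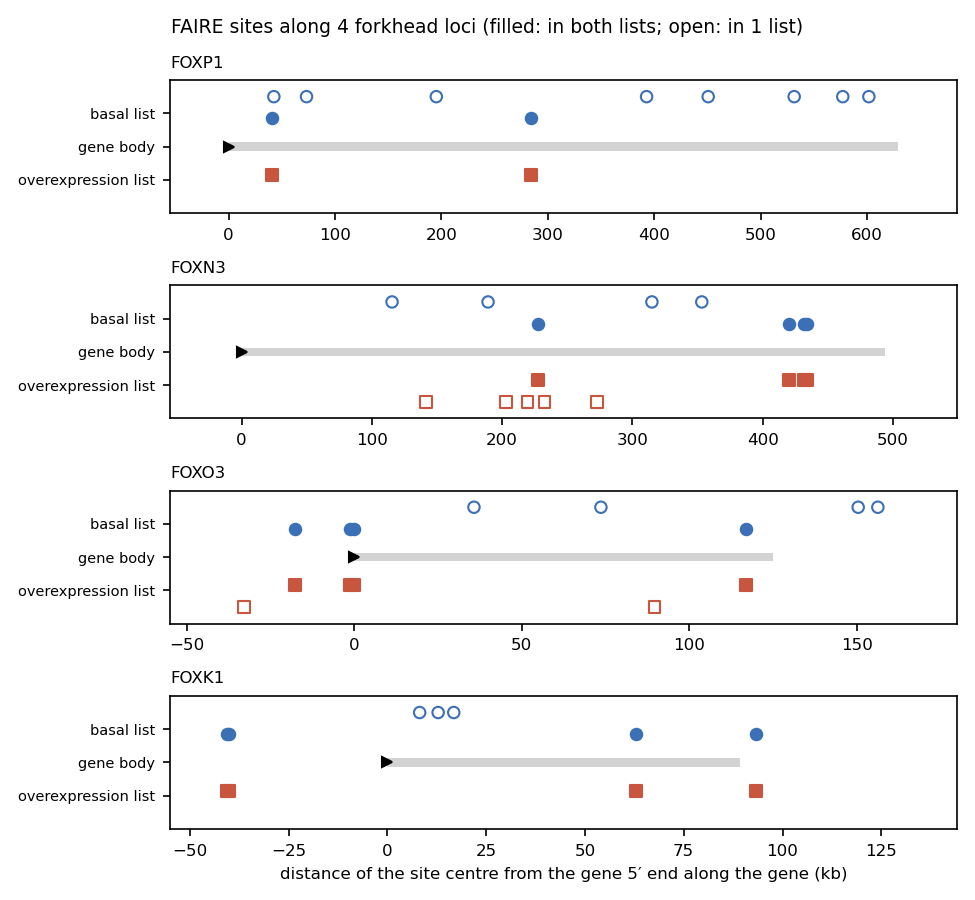
Positions of all FAIRE sites within 50 kb of FOXP1, FOXN3, FOXO3 and FOXK1, as the distance of the site centre from the 5′ end of the gene in kb (x axis, a separate scale in each panel), in the basal list (blue, top) and the overexpression list (red, bottom), with the gene body in grey. Filled symbols overlap a site of the other list, and open ones, drawn further from the gene, do not. FOXP1 has 8 open basal symbols and none on overexpression, whereas FOXN3 has open symbols in both lists.

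Other forkhead genes had fewer distal sites. FOXJ2 had 4 in each list, all common, from 37.3 kb upstream to an intron. FOXB1, a factor of the hypothalamus and midbrain, had 4 and 3, including a site of 499 bp in both lists about 4 kb downstream of the gene. FOXO6 had 3 and 3. FOXN1, the factor of thymic epithelium, had 2 at basal expression and 4 on overexpression, of which the widest overexpression-only site (399 bp) lay in an intron of FOXN1 that is also within RSKR, and the others within neighbouring genes. FOXR1 had 1 and 3, none within the gene, and its widest overexpression-only site (399 bp) lay 49.5 kb upstream within BCL9L, near the 50 kb limit. The basal-only site of FOXS1 lay 49.7 kb upstream within TTLL9.

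Among SOX genes, group D had the most distal sites, 9 in each list, and those of group C all belonged to SOX12. SOX12 had 3 at basal expression and 5 on overexpression, and all 3 basal sites were also in the other list. The widest of them, at chr20:291001-291499, measured 499 bp and lay 14.9 kb upstream. SOX5, which acts with SOX6 and SOX9 in cartilage, had 5 and 2, of which 4 basal and 1 overexpression site were intronic and called in 1 list only. Its 1 site of both lists lay 34.4 kb upstream of the gene. SOX13 had 2 and 4, and both basal sites were also called on overexpression. These lay downstream of SOX13 within the bodies of neighbouring genes, and the one within ETNK2 measured 449 bp at basal expression and 649 bp on overexpression. The SOX13 count therefore comes in part from the bodies of neighbouring genes. SOX6 had 2 and 3.

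The SOXE genes, which act in the gonad, cartilage and neural crest, had between 0 and 3 distal sites each in a list. SOX8, which acts with SOX9 in Sertoli cells, had 2 distal sites at basal expression, both also on overexpression, and 1 more on overexpression, all within the neighbouring gene LMF1. SOX9 had no distal site within 50 kb in either list. SOX10 had no promoter site and 2 distal sites, both downstream within MICALL1 and POLR2F and called at basal expression only. In group F, SOX17, a factor of endoderm and endothelium, had 1 basal-only distal site 26.0 kb upstream, and SOX18 and SOX7 had no promoter or distal site. SOX2 had its promoter site in both lists and no distal site.

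Lineage factors were also counted as a list. Of 24 genes in a list of lineage and signalling factors, 7 had a promoter site in both lists, 3 at basal expression only, 1 on overexpression only and 13 (54.2%) in neither, against 48.8% of all protein-coding genes without a site. FOXA2, a factor of liver and endoderm, had neither a promoter nor a distal site. FOXP3 also had neither, and its window held only sites at the starts of other genes. FOXD3, a neural crest factor, had 1 distal site in each list at different positions. FOXF1, a factor of lung mesenchyme, had 2 and 1, and FOXD1 had 3 and 2. FOXL2 had 1 distal site in both lists, 7.82 kb downstream at basal expression, and a second on overexpression only. FOXM1, a driver of mitotic genes, had 3 and 2 distal sites but no promoter site. FOXC1 had none at basal expression and 1 on overexpression, in its coding exon.

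To see how far the lists coincided near these genes, sites with an overlap of 1 bp or more between the lists were called shared. Of the distal sites, 51 of 100 at basal expression (51%, 40.8 to 61.1%) and 51 of 87 on overexpression (58.6%, 47.6 to 69.1%) were shared. Sites called in 1 list only thus made up 49 and 36, and near all protein-coding genes the unshared percentage was 54.5 at basal expression and 47.1 on overexpression. Of all sites near a start of any protein-coding gene in these windows, 52 of 68 (76.5%, 64.6 to 85.9%) and 53 of 63 (84.1%, 72.7 to 92.1%) were shared, with unshared percentages of 18.4 and 22.2 near all protein-coding genes. The values of all protein-coding genes lay within these intervals. Place in a list was taken as the site number in percent of the highest number. Basal-only distal sites stood later, with a median place of 72.9%, against 45.8% for the shared ones of that list. For the overexpression list the medians were 63.1% and 42.6%. In total there were 168 sites at basal expression and 150 on overexpression in the windows, a ratio of 0.893 (0.712 to 1.12), an interval that includes the genome-wide 0.907. With the narrower sites left out the ratio turned to 1.08 (0.801 to 1.45).

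The letters bound by SF-1 were looked up in 300 bp around each site centre, on both strands, as CAAGGTCA or CAAGGCCA. They were present in 15 of 100 distal sites at basal expression (15%, 8.65 to 23.5%) and 15 of 87 on overexpression (17.2%, 9.98 to 26.8%), against 17.4% and 18.6% of all distal sites near protein-coding genes. Forkhead letters (TGTTTAC) were present in 7% (2.86 to 13.9%) and 3.45% (0.717 to 9.75%), against 5.47% and 4.90%. SOX letters (AACAATG) were present in 7% (2.86 to 13.9%) and 2.30% (0.280 to 8.06%), against 5.58% and 5.18%. Each of these intervals includes the share of all distal sites. None of the 21 basal and 16 overexpression promoter sites of the genes themselves held the SF-1 letters, which were present in 3.43% and 3.86% of the sites near starts of all protein-coding genes. With shares this low, 21 and 16 sites are too few to show a lack. Of all sites near any start in the windows, 4 of 68 (5.88%, 1.63 to 14.4%) and 5 of 63 (7.94%, 2.63 to 17.6%) held them. A match is a description of the sequence and not a bound site.

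SF-1 letters stood in distal sites of 13 genes at basal expression and 11 on overexpression. The share of all protein-coding genes with such a site was not computed. By site, the shares given above were close to those of all distal sites, so these counts mark no trait of the FOX and SOX genes. The stretches of 5 of these sites are shown because they give examples of the letters in shared, basal-only and overexpression-only sites. They are given on the plus strand of GRCh37, with the match in capitals (TGACCTTG is CAAGGTCA read on the other strand). The shared sites lie at chr16:1027051-1027249, 4.62 kb upstream of SOX8, and at chr5:72737351-72737599, 3.18 kb downstream of FOXD1. The basal-only stretch, chr7:4738576-4738875, is in an intron of FOXK1. The overexpression-only stretches are at chr14:89852951-89853199 in an intron of FOXN3 and at chr1:204112351-204112650 downstream of SOX13 within ETNK2. Those of FOXK1 and SOX13 are the central 300 bp of wider sites.
SOX8 shared: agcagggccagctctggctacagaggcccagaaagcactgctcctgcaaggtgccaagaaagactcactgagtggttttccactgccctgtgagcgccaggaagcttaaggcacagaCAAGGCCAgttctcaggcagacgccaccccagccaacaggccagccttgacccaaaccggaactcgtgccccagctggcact
FOXD1 shared: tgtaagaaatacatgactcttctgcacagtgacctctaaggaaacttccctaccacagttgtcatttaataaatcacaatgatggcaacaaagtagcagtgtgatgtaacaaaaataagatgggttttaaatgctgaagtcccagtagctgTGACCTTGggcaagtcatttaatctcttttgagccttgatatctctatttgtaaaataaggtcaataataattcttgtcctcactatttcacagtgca
FOXK1 basal-only: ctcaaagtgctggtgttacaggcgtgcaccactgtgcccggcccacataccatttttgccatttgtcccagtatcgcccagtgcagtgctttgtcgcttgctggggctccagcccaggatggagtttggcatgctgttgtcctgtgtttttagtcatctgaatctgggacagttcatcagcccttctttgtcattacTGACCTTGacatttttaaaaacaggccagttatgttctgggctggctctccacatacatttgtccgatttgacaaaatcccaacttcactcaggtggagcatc
FOXN3 overexpression-only: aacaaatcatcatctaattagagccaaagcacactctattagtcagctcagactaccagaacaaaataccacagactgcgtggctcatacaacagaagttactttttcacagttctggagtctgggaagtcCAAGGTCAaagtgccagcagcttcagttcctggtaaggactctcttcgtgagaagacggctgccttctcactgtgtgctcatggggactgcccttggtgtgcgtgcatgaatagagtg
SOX13 overexpression-only: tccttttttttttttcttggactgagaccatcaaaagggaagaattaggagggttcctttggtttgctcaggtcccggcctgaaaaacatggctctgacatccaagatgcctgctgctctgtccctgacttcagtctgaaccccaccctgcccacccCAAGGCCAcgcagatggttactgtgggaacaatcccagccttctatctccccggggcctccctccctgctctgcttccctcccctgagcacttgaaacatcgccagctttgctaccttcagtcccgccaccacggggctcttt

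All FOXO genes had a basal promoter site, though those of FOXO1 and FOXO4 were narrow and basal-only. The genes that act above and below FOXO proteins in insulin and PI3K signalling were therefore counted in the same way. Of 22 such genes, 17 (77.3%) had a promoter site at basal expression and 16 (72.7%) on overexpression, compared with 44.4% and 46.5% of all protein-coding genes. Among those without a promoter site in either list were G6PC1 and PCK1, gluconeogenic target genes of liver and kidney. A distal site was present for 19 (86.4%) and 20 (90.9%) of the 22 genes, against 71.6% and 70.4% of all protein-coding genes, but their median length was 52.1 kb against 27.2 kb, so their windows are larger. The FOXO genes themselves had 17 unique distal sites at basal expression and 13 on overexpression.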

How the data were processed

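The 4 samples were 1 FAIRE and 1 input DNA library per condition, and samples were grouped per the labels. Per the submitters' processing notes the build was hg19 and CASAVA 1.8 was used. The FAIRE aligner, peak caller and threshold are not given in the sources used here. The authors deposited 1 peak list per FAIRE library, with a score of 1000 for every peak and all starts on a 50 bp grid. Read counts were not analysed here, so depth is unknown. Input DNA libraries were not analysed here.

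Sites were placed by their centre on GENCODE release 44 mapped to GRCh37, and no nuclear site ran past a chromosome end. Coordinates are 1-based. Site classes, overlaps and motifs were computed with Python 3.11.15, pandas 2.3.3, numpy 2.4.6, scipy 1.17.1 and pysam 0.24.0, figures with matplotlib 3.10.9, and the counting was tested on simulated data. Named genes were those with a promoter site in 1 list only, the 10 with the most distal sites, a list of lineage factors, and the genes of the 3 widest promoter and distal sites of each class. Further genes were named after their values were seen. Members and lists were chosen with earlier results of these data known. Alternatives changed the distances, the overlap, the width limit, the list length and the near-copy genes. For equal list length, the basal list was cut to its first-numbered sites.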

Additional observations from a re-analysis of the deposited data

How the results depend on the processing

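Across 20 results and 91 recomputed values, 74 stayed within 1.5 times the count or within the counting interval of the value reported, 17 moved and 0 called differences changed sign, since none was called. The order of the lists did turn in places: with the wider sites alone the ratio of overexpression to basal sites was 1.08, against 0.893 for the whole lists and 0.987 at equal list length. When only the wider sites of both lists were kept, the number of genes with a promoter site fell to 11 at basal expression, below the 12 on overexpression, and, for the basal list only, to 1, whereas the number for the overexpression list only was 2. Under the same limit the distal sites numbered 51 at basal expression and 49 on overexpression, and of the overexpression sites 68.75% near a start and 42.9% of the distal ones were shared. The FOXP1 sites then numbered 3 for the basal list only and 0 on overexpression. The number of genes with a promoter site on overexpression only was 3 within 2 kb and 2 when any base of the site could lie within 1 kb. With a window of 10 kb there were 58 basal and 45 overexpression distal sites, and with 100 kb there were 168 and 142, when FOXP1 had 2 on overexpression. When a site was counted only for its nearest protein-coding gene, 67 basal and 51 overexpression distal sites were left. These settings count fewer or more sites than the main one, and the reason for each move was not tested. Sequencing depth is unknown, so sites near the calling threshold of either library cannot be told apart from a change. No paired analysis was possible because each condition had 1 library and the labels give no replicate numbers.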
